A study of Mus musculus with 12 samples.

Results

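Interleukin and interleukin receptor genes were read on Illumina BeadChips in CD45+ cells, CD45 being the surface marker of leukocytes, isolated from the prostate of TRAMP mice on the C57Bl/6 background. TRAMP is a transgenic model in which the probasin promoter drives SV40 early genes in prostate epithelium, so that prostate adenocarcinoma develops. The genes were those whose array symbol starts with Il and a digit, less Il7r, Il2ra, Il10, Il1b, Il18, Il1rn and Il4ra. Of 77 such symbols 70 stayed, 34 cytokine genes, 34 receptor genes and 2 others (Il18bp and Il4i1), among 19057 annotated symbols. A gene counted as measured when a probe had a detection p under 0.05 on at least 3 of the 12 arrays, and 47 of the 70 passed, as did 11971 genes in all.

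Each mouse had received an adoptive T cell transfer (ACT), and the 4 groups of 3 mice are named after it. Allo/Y (samples 1, 2 and 3), Tumor (samples 4, 5 and 6) and Tumor+Allo/Y (samples 7, 8 and 9) were taken 1 week after transfer, which the submitters call the time of acute prostate infiltration. Tumor+Allo/Y (d28), samples 10, 11 and 12, received the combined transfer and was taken after 28 days. All 4 groups carry the TRAMP transgene and a transfer, and no group without a transfer was analysed here. The labels do not expand Allo/Y and give no age for the mice.

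Interleukins are secreted messengers between immune cells and between immune cells and tissue. Most bind receptors built from several chains, often a private chain that recognises the ligand and a chain shared by a family, so that the genes fall into groups by shared chain: the common gamma chain, gp130 and IL-12, IL-1, IL-10, IL-17 and common beta chain families. Most of these receptors signal through JAK kinases and STAT factors, while IL-1, IL-18 and IL-17 receptors use the adaptors MyD88 or Act1. In the prostate, T and NK cells carry the IL-12, IL-18 and IL-2 receptors, and epithelium carries receptors of the IL-17 and IL-20 type.

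Values are log2 normalized intensities of 1 probe per gene and differences are log2 differences ± SE with n = 3 arrays per group, called when limma's adjusted p over all 11971 genes was under 0.05. Values of different probes are not set against each other. Between 18981 and 21718 of 45281 probes were above background per array, and the median raw signal was 53.8 to 68.9. The CD45 gene Ptprc was above background on all 12 arrays. Its level ran from 5.37 to 5.67 in Allo/Y and from 6.65 to 8.42 elsewhere. The mean of 19 measured genes shared by leukocytes was 8.66, 8.87 and 8.80 in Allo/Y, 10.53, 10.62 and 11.09 in Tumor, 10.99, 10.60 and 11.02 in Tumor+Allo/Y and 10.98, 10.69 and 10.92 at day 28. The mean of 16 of 18 prostate and seminal vesicle epithelium markers was 12.38, 11.87 and 12.10 in Allo/Y, 10.73, 10.71 and 8.06 in Tumor, 9.84, 10.93 and 9.51 in Tumor+Allo/Y and 10.66, 11.19 and 10.58 at day 28. The Allo/Y arrays thus had the lowest leukocyte and the highest epithelium levels, with no overlap with any other group, although all arrays are labelled CD45+ cells, and the part of this in the results below was not tested. In such bulk RNA fewer cells of a type and less RNA per cell cannot be told apart.

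Samples 6 and 8 stood apart from their groups. Over all log2 values Tumor sample 6 correlated with a sample of its own group as low as 0.899 and best with Tumor+Allo/Y sample 9 (0.975), and Tumor+Allo/Y sample 8 correlated best with Tumor sample 4 (0.983). Neutrophil markers, 7 of 10 measured, averaged 7.11, 7.33 and 7.45 in Allo/Y, 6.91, 7.59 and 9.30 in Tumor, 8.83, 8.25 and 9.35 in Tumor+Allo/Y and 7.90, 7.56 and 7.95 at day 28. They were highest on samples 6, 7 and 9, and 13 of the 47 interleukin genes had their 3 highest values on just these arrays, among them Il27, Il5, Il12rb1, Il12rb2, Il10ra, Il1r2, Il3ra and Il6ra. Sample 6 held the highest value of 16 of the 47 genes and Allo/Y sample 1 the lowest of 15. The shares of all genes with these patterns were not counted, so the counts are not shown to be particular to interleukin genes. T cell markers, 11 of 14 measured, averaged 7.75, 8.04 and 7.97 in Allo/Y, 10.77, 10.75 and 9.75 in Tumor, 10.46, 10.83 and 9.59 in Tumor+Allo/Y and 12.03, 11.70 and 11.40 at day 28, highest at day 28. The part of these shifts in the results was not tested.

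Detection itself divided the genes. Of the 34 cytokine genes 18 passed and 16 did not, while 27 of 34 receptor genes and both others passed. Not above background on any array were Il9, Il17b, Il17c, Il17f, Il19, Il20, Il22, Il25, Il31, Il34, Il1f5, Il1f6, Il1f8 and Il1f9. Il3 passed the detection threshold on Tumor sample 6 and Tumor+Allo/Y sample 9, and Il21, a T cell cytokine, on day 28 sample 10. Of the receptor genes, Il23r, Il9r, Il13ra2, Il1rapl1 and Il1rapl2 were above background on no array, Il22ra2 on 1 Tumor array and Il5ra on 1 Allo/Y array. Each array had 13 to 18 cytokine genes and 21 to 27 receptor genes above background. Receptor genes above background numbered 21, 22 and 24 in Allo/Y and 27, 25 and 24 in Tumor, so that these groups met at 24. Of the 47 genes, 27 were above background on all 12 arrays and 20 on 3 to 11.

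Against Allo/Y, the combined transfer gave 21 of the 47 genes called higher and 5 called lower, where 20.6% of all genes were called higher and 27.3% lower (47.9% called). The Tumor transfer gave 18 higher and 3 lower, where 18.2% and 22% of all genes were (40.2% called). The median difference was 0.67 in both, against -0.04 and -0.02 over all genes. The groups did not overlap for 32 genes in the first comparison, where 62.1% of all genes did not, and for 27 in the second, where 57.1% did not. Some genes passed the detection filter only through the groups where they were high. Among the 27 genes above background on all 12 arrays, 15 were called higher and 3 lower with the combined transfer, and 13 and 1 with the Tumor transfer. Both comparisons share the 3 Allo/Y arrays, so their likeness is not independent. By class, cytokine genes were called higher in 6 and lower in 2 of 18 cases with the combined transfer, and receptor genes in 14 and 3 of 27. The Tumor transfer gave 3 higher and 1 lower for cytokine genes and 14 and 2 for receptor genes.

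These directions are relative to all RNA on the array. With each array shifted to an equal mean of the shared leukocyte genes, Tumor+Allo/Y moved down by 2.09 and Tumor by 1.97 against Allo/Y, the median of all genes became -2.14 and -1.99, and 92.7% and 92.8% of all genes were called lower. On that scale 2 members, Il12rb1 and Il18rap, were still called higher in both comparisons, where 1.12% and 0.936% of all genes were. In each comparison 33 members were called lower. Of the 21 and 18 genes called higher on the array-wide scale, 7 and 6 were called lower there. For genes above background on no Allo/Y array, such as Il12rb2, a negative value there gives no direction. Values on this second scale stand beside the main genes below as the leukocyte scale.

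**Figure D1:**
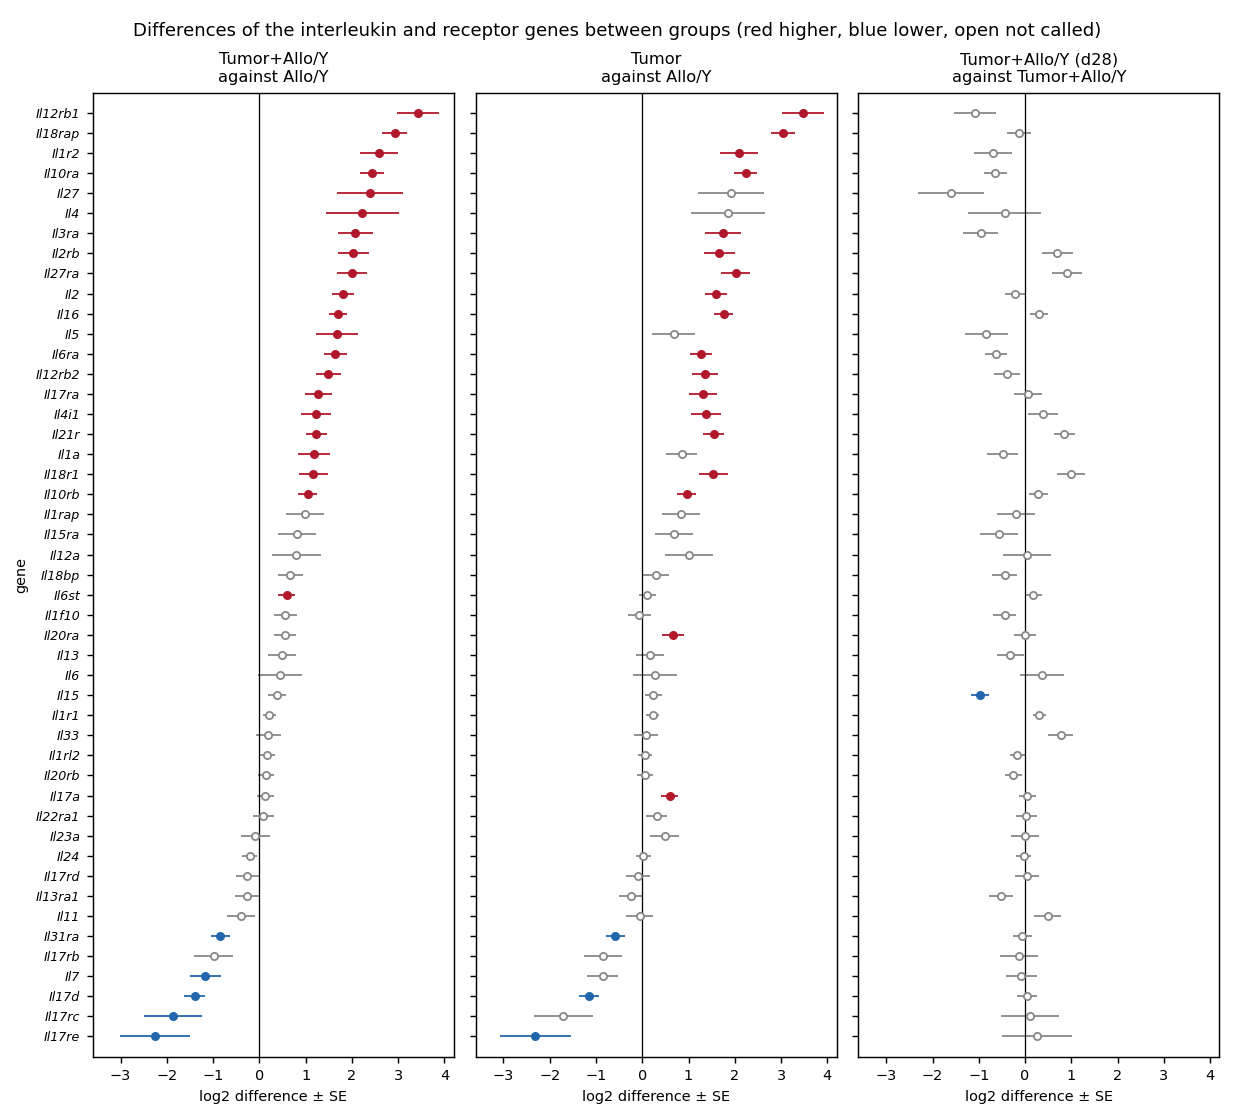
Log2 differences ± SE (x axis) for the 47 measured genes (y axis, in the order of the first panel) in 3 comparisons, n = 3 arrays per group, filled where called at an adjusted p under 0.05, red higher and blue lower. Most called genes were higher in both comparisons with Allo/Y (21 and 18 higher, on the leukocyte scale 2 and 2), and 1 gene, Il15, was called between day 28 and 1 week.

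Both chains of the IL-12 receptor were called higher with both transfers, Il12rb1 by the largest difference of the 47 genes in each, Il12rb2 by less than several other receptor genes. Il12rb1 encodes the chain shared by the IL-12 and IL-23 receptors, and Il12rb2 the chain particular to IL-12, the cytokine that drives interferon gamma production by T and NK cells. Il12rb1 read 4.73, 5.02 and 4.77 in Allo/Y, 7.62, 8.07 and 9.25 in Tumor, 8.82, 7.31 and 8.64 in Tumor+Allo/Y and 7.31, 6.78 and 7.46 at day 28. No Allo/Y array was above background for it and every other array was. Tumor+Allo/Y stood at least 9.62-fold above Allo/Y and Tumor at least 10-fold, each bound set against the lowest signal above background, with adjusted p = 3.65e-04 and 4.66e-04. On the leukocyte scale the differences were 1.32 and 1.50. Il12rb2 read 4.53, 4.46 and 4.63 in Allo/Y, 5.44, 5.70 and 6.53 in Tumor, 6.38, 5.54 and 6.18 in Tumor+Allo/Y and 5.78, 5.50 and 5.61 at day 28. It too was above background on no Allo/Y array and on all 9 others. The bounds were at least 2.06-fold for Tumor+Allo/Y (adjusted p = 0.002) and at least 1.86-fold for Tumor (adjusted p = 0.00467). On the leukocyte scale the values were -0.60 and -0.62, which give no direction, since the Allo/Y signal was at background.

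The promoter of Il12rb2 is among 6 of 46 promoters of these genes that hold the STAT recognition letters TTCNNNGAA, searched on both strands, in the stretch from 250 bases before to 50 after the start. The table of RefSeq promoters (GRCm38.p6) held 36 of the 47 measured genes. The share was 13% of their promoters, against 8.3% of all 32851 promoters of the table, and a match is a description, not a site. Shown are 4 of the 6, with the match in capitals: Il12rb2, Il18r1 (with 2 matches) and Il4, called higher with the combined transfer, and Il31ra, called lower. The others were Il1r2 (higher) and Il17d (lower).
Il12rb2 (chr6:67376139-67376438, strand -): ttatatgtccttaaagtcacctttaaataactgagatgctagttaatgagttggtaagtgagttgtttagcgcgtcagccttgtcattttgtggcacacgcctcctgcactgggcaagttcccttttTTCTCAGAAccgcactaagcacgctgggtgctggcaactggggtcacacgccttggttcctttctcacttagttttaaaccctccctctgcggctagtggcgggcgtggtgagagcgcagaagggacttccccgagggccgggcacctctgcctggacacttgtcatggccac
Il18r1 (chr1:40465756-40466055, strand +): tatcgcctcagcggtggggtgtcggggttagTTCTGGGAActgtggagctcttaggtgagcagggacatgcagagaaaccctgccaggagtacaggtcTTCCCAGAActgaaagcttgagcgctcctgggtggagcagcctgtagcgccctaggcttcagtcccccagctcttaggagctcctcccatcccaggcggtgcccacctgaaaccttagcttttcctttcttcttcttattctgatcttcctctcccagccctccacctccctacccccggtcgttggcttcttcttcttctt
Il4 (chr11:53617289-53617588, strand -): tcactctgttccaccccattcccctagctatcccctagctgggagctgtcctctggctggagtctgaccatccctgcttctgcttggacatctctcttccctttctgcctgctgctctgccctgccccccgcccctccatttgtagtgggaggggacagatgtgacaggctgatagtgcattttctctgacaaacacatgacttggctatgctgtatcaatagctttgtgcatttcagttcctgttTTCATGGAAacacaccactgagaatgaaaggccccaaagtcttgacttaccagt
Il31ra (chr13:112580613-112580912, strand -): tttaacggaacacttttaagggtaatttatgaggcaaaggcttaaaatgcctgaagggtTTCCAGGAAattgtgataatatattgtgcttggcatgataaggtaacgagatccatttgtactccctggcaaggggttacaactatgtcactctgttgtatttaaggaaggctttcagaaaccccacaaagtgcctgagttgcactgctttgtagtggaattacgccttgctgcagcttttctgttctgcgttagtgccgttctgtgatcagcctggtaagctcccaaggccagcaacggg
The matches began 123 bases before the start in Il12rb2, 219 and 152 in Il18r1, 4 in Il4 and 191 in Il31ra. Genes with a match were thus called in either direction.

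IL-27, a cytokine of activated myeloid cells, signals through Il27ra and gp130. Its subunit gene Il27 read 4.81, 4.65 and 4.67 in Allo/Y, 5.24, 6.23 and 8.40 in Tumor, 7.79, 5.89 and 7.61 in Tumor+Allo/Y and 5.33, 5.14 and 6.03 at day 28. It was above background on no Allo/Y array, and samples 6, 7 and 9 carried its 3 highest values. Tumor+Allo/Y stood at least 4.31-fold above Allo/Y (2.39 ± 0.71 (adjusted p = 0.0193)). The call was lost without sample 2, 3, 7 or 9, at adjusted p = 0.051 to 0.0771. For Tumor the difference was 1.92 ± 0.71 (adjusted p = 0.0535), or 1.03 without sample 6. On the leukocyte scale these were 0.30 and -0.055, again with Allo/Y at background. The receptor gene Il27ra read 7.41, 7.64 and 7.35 in Allo/Y, 9.76, 9.81 and 8.87 in Tumor, 9.57, 9.76 and 9.06 in Tumor+Allo/Y and 10.92, 10.37 and 9.82 at day 28. Unlike its ligand it was high on every array outside Allo/Y and highest on the 3 day 28 arrays, the lowest of which stood just above Tumor sample 5. It rose by 2.00 ± 0.32 (adjusted p = 9.26e-04) with the combined transfer and 2.02 ± 0.32 (adjusted p = 0.00128) with the Tumor transfer, which came to -0.095 and 0.047 on the leukocyte scale.

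Il6st encodes gp130, the signal chain shared by IL-6, IL-11, IL-27 and their relatives, and Il6ra the IL-6 binding chain. Il6ra read 8.06, 8.38 and 8.09 in Allo/Y, 9.22, 9.25 and 9.84 in Tumor, 10.02, 9.29 and 10.14 in Tumor+Allo/Y and 9.34, 9.10 and 9.13 at day 28. All 9 other arrays lay above the Allo/Y arrays. It was higher by 1.64 ± 0.24 (adjusted p = 5.66e-04) with the combined and by 1.26 ± 0.24 (adjusted p = 0.00308) with the Tumor transfer, and at -0.45 and -0.71 on the leukocyte scale. Il6st read 7.52, 7.37 and 7.71 in Allo/Y, 7.66, 7.49 and 7.77 in Tumor, 8.39, 7.85 and 8.12 in Tumor+Allo/Y and 7.99, 8.55 and 8.37 at day 28. The Tumor arrays overlapped with Allo/Y, and the Tumor+Allo/Y arrays lay above both. The combined transfer was higher by 0.59 ± 0.18 (adjusted p = 0.0239), a call lost without sample 1, 2, 7 or 9 (adjusted p = 0.0581 to 0.0974), and the Tumor difference was 0.11 ± 0.18 (adjusted p = 0.659). On the leukocyte scale they were -1.51 and -1.86.

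Next to Il6st in the genome lies Il31ra, the private chain of the IL-31 receptor, which went the other way. It read 6.22, 5.31 and 5.61 in Allo/Y, 5.09, 4.99 and 5.31 in Tumor, 4.84, 4.79 and 4.97 in Tumor+Allo/Y and 4.64, 4.85 and 4.92 at day 28. All 3 Allo/Y arrays were above background, 2 of 3 Tumor arrays were, and none of the 6 Tumor+Allo/Y arrays at either time was. Against Allo/Y, Tumor+Allo/Y was lower, at least 1.51-fold (-0.85 ± 0.21 (adjusted p = 0.00789)), and Tumor by -0.58 ± 0.21 (adjusted p = 0.0456). The Tumor call was lost on leaving out any array other than samples 2 and 6, at adjusted p = 0.0519 to 0.152 and a difference of -0.33 without sample 1. Il12a, the p35 subunit of IL-12, was above background on no Allo/Y array, on 2 of 3 Tumor arrays and on all 6 others, at 4.89, 4.77 and 4.59 in Allo/Y, 4.69, 5.54 and 7.04 in Tumor, 5.44, 4.98 and 6.22 in Tumor+Allo/Y and 5.62, 5.09 and 6.07 at day 28. Its highest value was on sample 6, and it was not called (0.80 ± 0.52 (adjusted p = 0.226) for Tumor+Allo/Y and 1.01 ± 0.52 (adjusted p = 0.143) for Tumor). Il23a, the IL-23 subunit, read 5.20, 5.21 and 5.06 in Allo/Y, 5.01, 5.42 and 6.48 in Tumor and 5.00, 4.86 and 5.34 in Tumor+Allo/Y, with its highest value on sample 6 and differences of -0.09 ± 0.31 (adjusted p = 0.833) and 0.48 ± 0.31 (adjusted p = 0.231). Il6 read 6.53, 6.04 and 6.39 in Allo/Y, 5.73, 6.10 and 7.94 in Tumor and 6.98, 6.35 and 7.00 in Tumor+Allo/Y, and the groups overlapped (0.45 ± 0.48 (adjusted p = 0.456) and 0.27 ± 0.48 (adjusted p = 0.681)). Il11 read 5.40, 5.43 and 5.30 in Allo/Y, 4.82, 5.19 and 5.95 in Tumor and 4.95, 5.03 and 4.97 in Tumor+Allo/Y, at -0.40 ± 0.29 (adjusted p = 0.288) and -0.06 ± 0.29 (adjusted p = 0.891).

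Genes of the common gamma chain family included the T cell growth factor Il2 and the receptor chain Il2rb, which IL-2 and IL-15 share. Il2 read 5.15, 5.27 and 5.15 in Allo/Y, 6.53, 6.49 and 7.34 in Tumor, 6.99, 7.05 and 6.95 in Tumor+Allo/Y and 7.15, 6.42 and 6.81 at day 28. Every array outside Allo/Y lay above every Allo/Y array. The difference was 1.81 ± 0.24 (adjusted p = 3.3e-04) for Tumor+Allo/Y and 1.59 ± 0.24 (adjusted p = 8.89e-04) for Tumor, and -0.29 and -0.38 on the leukocyte scale. Il2rb read 5.69, 5.62 and 5.65 in Allo/Y, 7.76, 7.69 and 6.51 in Tumor, 8.18, 7.76 and 7.11 in Tumor+Allo/Y and 8.42, 8.52 and 8.18 at day 28. The day 28 arrays and sample 7 were the highest, and sample 6 was the lowest outside Allo/Y. It was higher by 2.03 ± 0.34 (adjusted p = 0.00106) and 1.67 ± 0.34 (adjusted p = 0.00411), and at -0.062 and -0.30 on the leukocyte scale. Il21r, the receptor of the helper T cell cytokine IL-21, read 4.83, 5.01 and 5.31 in Allo/Y, 6.94, 6.19 and 6.65 in Tumor, 6.27, 6.28 and 6.28 in Tumor+Allo/Y and 7.15, 7.47 and 6.73 at day 28. It was above background on 1 of 3 Allo/Y arrays and on all others, without overlap. The differences were 1.23 ± 0.23 (adjusted p = 0.00188) and 1.55 ± 0.23 (adjusted p = 8.54e-04), on the leukocyte scale -0.87 and -0.43.

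The type 2 cytokines Il4 and Il5 were called with the combined transfer. Il4, which drives alternative macrophage activation and IgE switching and is made by T cells, basophils and mast cells, read 6.42, 6.78 and 6.36 in Allo/Y, 6.97, 7.51 and 10.65 in Tumor, 8.48, 8.28 and 9.47 in Tumor+Allo/Y and 8.36, 7.62 and 8.93 at day 28. Tumor sample 6 was the highest array and Tumor+Allo/Y sample 9 the next. Tumor+Allo/Y was higher by 2.23 ± 0.79 (adjusted p = 0.0396), and the call was lost without sample 1, 2, 3, 7, 9 or 10 (adjusted p = 0.0542 to 0.127). Tumor differed by 1.86 ± 0.79 (adjusted p = 0.0837), and by 0.72 without sample 6. Il5, the eosinophil growth factor, read 4.55, 5.13 and 4.77 in Allo/Y, 5.15, 5.34 and 6.00 in Tumor, 7.18, 5.22 and 7.09 in Tumor+Allo/Y and 5.84, 5.32 and 5.81 at day 28. Samples 7 and 9 were high, sample 8 lay among the Tumor arrays, and 1 of 3 Allo/Y arrays was above background. Tumor+Allo/Y was higher by 1.68 ± 0.46 (adjusted p = 0.0134), a call lost without sample 7 or 9 (adjusted p = 0.0598 and 0.055), and Tumor differed by 0.68 ± 0.46 (adjusted p = 0.261). On the leukocyte scale Il4 stood at 0.13 and -0.12, and Il5 at -0.41 and -1.29. Il13, the neighbour of Il4 and Il5 in the genome, read 6.07, 5.74 and 5.78 in Allo/Y, 5.51, 6.07 and 6.54 in Tumor and 6.77, 5.74 and 6.53 in Tumor+Allo/Y. Its groups overlapped, and neither comparison was called (0.48 ± 0.30 (adjusted p = 0.204) and 0.18 ± 0.30 (adjusted p = 0.668)). Mast cell markers, 7 of 8 measured, averaged 9.47, 9.37 and 9.65 in Allo/Y, 9.84, 9.43 and 8.73 in Tumor, 10.23, 9.83 and 9.17 in Tumor+Allo/Y and 10.33, 10.45 and 10.02 at day 28, lowest on samples 6 and 9, and group 2 innate lymphoid markers, 4 of 6 measured, 8.19, 8.18 and 8.31 in Allo/Y, 9.58, 9.79 and 8.37 in Tumor, 9.58, 9.73 and 8.80 in Tumor+Allo/Y and 9.93, 9.82 and 9.90 at day 28, lowest in Allo/Y and next lowest on sample 6. The part of either list in these values was not tested.

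Il3ra, the IL-3 binding chain that pairs with the common beta chain, read 6.11, 6.34 and 6.66 in Allo/Y, 7.80, 7.74 and 8.81 in Tumor, 8.90, 7.68 and 8.76 in Tumor+Allo/Y and 7.38, 7.10 and 7.99 at day 28. All other arrays lay above Allo/Y, and samples 6, 7 and 9 were the highest. It was higher by 2.08 ± 0.38 (adjusted p = 0.00189) with the combined and 1.75 ± 0.38 (adjusted p = 0.00619) with the Tumor transfer (-0.017 and -0.22 on the leukocyte scale). Il7, a survival factor for T cells that stromal and epithelial cells make, went down: it read 7.31, 7.40 and 7.27 in Allo/Y, 6.59, 7.28 and 5.55 in Tumor, 5.99, 6.27 and 6.22 in Tumor+Allo/Y and 5.85, 6.25 and 6.12 at day 28. Tumor+Allo/Y was lower by -1.17 ± 0.34 (adjusted p = 0.0166), a call lost without sample 7 (-1.08, adjusted p = 0.0598), and its arrays did not overlap with Allo/Y. In Tumor sample 5 lay within the Allo/Y range and sample 6 far below it, and the difference was -0.85 ± 0.34 (adjusted p = 0.0652), or -0.39 without sample 6. Il15ra and Il13ra1 were not called in any comparison. For Il15ra, the chain that presents IL-15, 2 other probes were called higher in Tumor+Allo/Y (1.09 and 1.33) where the probe used here gave 0.81 ± 0.41 (adjusted p = 0.124).

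In the IL-1 family the receptor chains for IL-18 and the decoy receptor Il1r2 were called. Of the 3 measured ligand genes, Il1a alone was called in a comparison. The ligand genes Il1b and Il18 were left out of the set, so nothing is said of them. Il18rap, the signal chain of the IL-18 receptor, read 4.81, 5.01 and 5.33 in Allo/Y, 7.98, 8.42 and 7.87 in Tumor, 8.50, 7.86 and 7.57 in Tumor+Allo/Y and 8.23, 7.57 and 7.72 at day 28. It was above background on 1 of 3 Allo/Y arrays and all others. The differences were 2.93 ± 0.27 (adjusted p = 6.06e-05) for Tumor+Allo/Y and 3.04 ± 0.27 (adjusted p = 6.35e-05) for Tumor, and 0.83 and 1.07 on the leukocyte scale, where both were still called. A second probe gave 0.45 and 0.52 and was not called. Its partner and neighbour Il18r1, the IL-18 binding chain, read 8.13, 8.23 and 8.04 in Allo/Y, 10.02, 9.93 and 9.07 in Tumor, 9.45, 9.62 and 8.84 in Tumor+Allo/Y and 10.71, 10.40 and 9.77 at day 28. Samples 6 and 9 were the lowest outside Allo/Y, and the day 28 arrays lay above those of Tumor+Allo/Y. It was higher by 1.17 ± 0.31 (adjusted p = 0.0115) and 1.54 ± 0.31 (adjusted p = 0.00418). A second probe gave -0.47 and -0.10 and was not called, and the mean of both probes lost both calls (0.35 with adjusted p = 0.308, and 0.72 with adjusted p = 0.0543). On the leukocyte scale the probe used stood at -0.93 and -0.44.

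Il1r2 binds IL-1 without signaling and is known from neutrophils and regulatory T cells. It read 7.68, 7.87 and 7.99 in Allo/Y, 9.26, 9.67 and 10.92 in Tumor, 10.71, 9.72 and 10.89 in Tumor+Allo/Y and 9.54, 9.57 and 10.10 at day 28. No array overlapped with Allo/Y, and samples 6, 7 and 9 were the highest, as they were for the neutrophil markers. The differences were 2.59 ± 0.41 (adjusted p = 8.87e-04) and 2.10 ± 0.41 (adjusted p = 0.00371), and 0.50 and 0.13 on the leukocyte scale. Il1a, an alarm cytokine released by damaged cells, read 8.41, 8.44 and 8.56 in Allo/Y, 8.55, 9.21 and 10.20 in Tumor, 9.45, 9.56 and 9.93 in Tumor+Allo/Y and 8.91, 9.47 and 9.11 at day 28. Tumor sample 4 lay within the Allo/Y range. The combined transfer was higher by 1.18 ± 0.34 (adjusted p = 0.0165), a call lost without sample 9 (1.04, adjusted p = 0.0606), and the Tumor difference was 0.85 ± 0.34 (adjusted p = 0.068), where a second probe was called (1.06). On the leukocyte scale it was -0.91 and -1.12. Il33, a nuclear alarm cytokine of epithelium and stroma, read 6.72, 6.88 and 7.20 in Allo/Y, 6.63, 6.70 and 7.72 in Tumor, 7.16, 7.04 and 7.19 in Tumor+Allo/Y and 7.92, 7.68 and 8.08 at day 28. Sample 6 and the 3 day 28 arrays were the highest. The F test over the 4 groups called it (adjusted p = 0.0366) and none of the 4 comparisons did. Day 28 was not compared with Allo/Y or with Tumor. Il1f10, or IL-38, read 4.87, 5.26 and 4.94 in Allo/Y, 4.50, 5.00 and 5.37 in Tumor and 5.94, 5.22 and 5.59 in Tumor+Allo/Y, above background on 7 of 12 arrays (0.56 ± 0.25 (adjusted p = 0.0834) and -0.06 ± 0.25 (adjusted p = 0.854)). Il1r1, Il1rap and Il1rl2, the chains that bind IL-1 or IL-36, and the IL-18 inhibitor Il18bp were called in none of the 4 comparisons. Their differences with the combined transfer ran from 0.17 to 0.99.

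**Figure D2:**
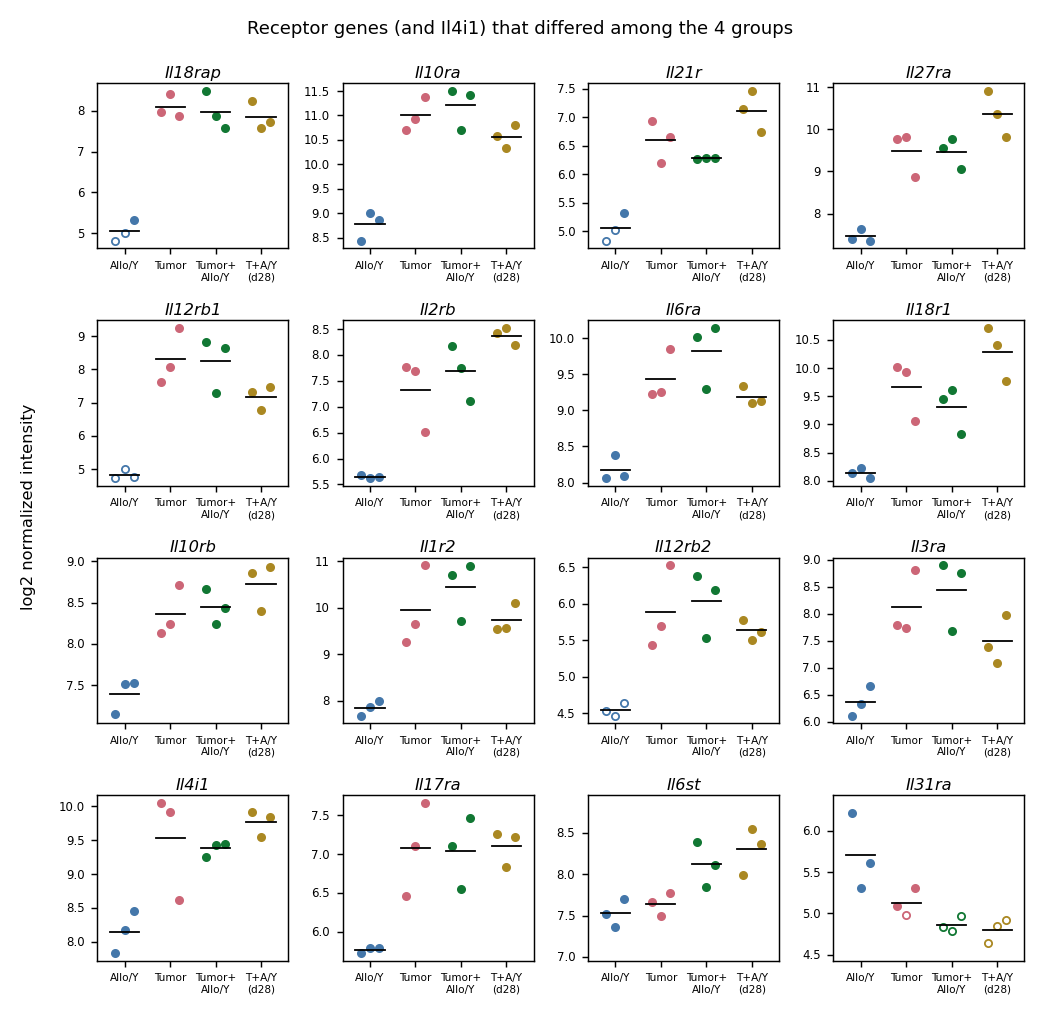
Log2 normalized intensity (y axes, 1 scale per gene) of the 15 receptor genes and Il4i1 that the F test and at least 1 pair of groups called, by group (x axis), 1 point per array, filled where the detection p was under 0.05, with the group mean as a line. In all panels other than Il6st and Il31ra the Allo/Y arrays lie below those of every other group, whereas on the leukocyte scale 2 of these genes, Il12rb1 and Il18rap, remained higher.

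The IL-10 receptor chains were called higher too. Il10ra, the IL-10 binding chain found on most leukocytes, read 8.44, 9.02 and 8.87 in Allo/Y, 10.71, 10.94 and 11.37 in Tumor, 11.51, 10.69 and 11.43 in Tumor+Allo/Y and 10.58, 10.34 and 10.80 at day 28. It was higher by 2.44 ± 0.26 (adjusted p = 1.12e-04) and 2.23 ± 0.26 (adjusted p = 2.42e-04), without overlap, and at 0.34 and 0.26 on the leukocyte scale, where neither was called. Il10rb, shared by the IL-10, IL-22 and interferon lambda receptors, read 7.16, 7.52 and 7.53 in Allo/Y, 8.14, 8.24 and 8.72 in Tumor, 8.67, 8.24 and 8.44 in Tumor+Allo/Y and 8.86, 8.40 and 8.93 at day 28. It was higher by 1.05 ± 0.21 (adjusted p = 0.00264) and 0.96 ± 0.21 (adjusted p = 0.00552), but lower by the leukocyte scale (-1.05 and -1.01). Il24, a cytokine of this family, was above background on 4 arrays, 2 of Allo/Y and 2 of Tumor, at 5.07, 5.02 and 5.03 in Allo/Y, 4.71, 5.10 and 5.38 in Tumor and 4.67, 4.90 and 4.93 in Tumor+Allo/Y (-0.21 ± 0.16 (adjusted p = 0.312) and 0.02 ± 0.16 (adjusted p = 0.93)). Of the chains for IL-20 and IL-22, Il20rb and Il22ra1 were not called, and Il20ra, named here after its values were seen, was called in Tumor (0.67 ± 0.24 (adjusted p = 0.0456)). That call was lost on leaving out any array other than samples 4, 8 and 9 (adjusted p = 0.0572 to 0.141), and on the leukocyte scale the difference was -1.30 and called lower.

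Il16, a chemoattractant that binds CD4, and Il4i1, a secreted L-amino acid oxidase of myeloid and B cells, belong to none of these families. Il16 read 6.20, 6.73 and 6.51 in Allo/Y, 8.40, 7.98 and 8.33 in Tumor, 8.26, 8.28 and 7.99 in Tumor+Allo/Y and 8.79, 8.13 and 8.52 at day 28. No array overlapped with Allo/Y, and the 9 others lay between 7.98 and 8.79. The differences were 1.70 ± 0.20 (adjusted p = 2.12e-04) and 1.76 ± 0.20 (adjusted p = 2.39e-04) (-0.40 and -0.21 on the leukocyte scale). Il4i1 read 7.83, 8.17 and 8.45 in Allo/Y, 10.06, 9.92 and 8.62 in Tumor, 9.25, 9.44 and 9.45 in Tumor+Allo/Y and 9.92, 9.55 and 9.84 at day 28. Sample 6 was the lowest outside Allo/Y and close to its highest array. It was higher by 1.23 ± 0.33 (adjusted p = 0.0114) and 1.38 ± 0.33 (adjusted p = 0.00876) (-0.86 and -0.59 on the leukocyte scale).

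Il17d, Il17re and Il17rc of the IL-17 family were 3 of the 5 genes called lower with the combined transfer, and the calls of the last 2 were lost on leaving out single arrays. Il17ra, the chain common to all IL-17 receptors and widely expressed on leukocytes, read 5.72, 5.79 and 5.79 in Allo/Y, 6.46, 7.11 and 7.67 in Tumor, 7.10, 6.55 and 7.46 in Tumor+Allo/Y and 7.26, 6.83 and 7.22 at day 28. It was higher by 1.27 ± 0.30 (adjusted p = 0.00627) and 1.31 ± 0.30 (adjusted p = 0.00737), and lower by the leukocyte scale (-0.82 and -0.66). Il17re, which binds the epithelial cytokine IL-17C, and its genomic neighbour Il17rc, which completes the IL-17A and IL-17F receptor, are named here after their values were seen. Il17re read 10.29, 10.46 and 10.48 in Allo/Y, 9.43, 9.02 and 5.86 in Tumor, 7.58, 9.00 and 7.88 in Tumor+Allo/Y and 8.08, 8.67 and 8.49 at day 28. All Allo/Y arrays lay above every other array, and sample 6 was the lowest by far. The differences were -2.26 ± 0.76 (adjusted p = 0.0322) and -2.31 ± 0.76 (adjusted p = 0.0344). The first call was lost without sample 1, 2, 3, 7 or 9 (adjusted p = 0.0698 to 0.108) and the second without sample 1, 2 or 3 (adjusted p = 0.0777 to 0.0838), and without sample 6 the second difference was -1.19. Il17rc read 9.97, 9.85 and 9.80 in Allo/Y, 9.12, 8.94 and 6.44 in Tumor, 7.32, 8.87 and 7.82 in Tumor+Allo/Y and 7.91, 8.62 and 7.79 at day 28. The differences were -1.87 ± 0.63 (adjusted p = 0.0328) and -1.71 ± 0.63 (adjusted p = 0.0528). The call was lost without sample 1, 2, 3, 7 or 9 (adjusted p = 0.0702 to 0.12), the Tumor difference was -0.84 without sample 6, and the F test called neither gene (adjusted p = 0.0681 for Il17re and 0.0759 for Il17rc). Both genes were highest in Allo/Y and lowest on sample 6, as were the epithelium markers, which stood at 11.87 to 12.38 in Allo/Y and at 8.06 on sample 6. Il17rb, the IL-25 binding chain, was lower on every Tumor and Tumor+Allo/Y array than in Allo/Y but was not called (-0.99 ± 0.41 (adjusted p = 0.0687) and -0.84 ± 0.41 (adjusted p = 0.125)).

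Of the ligands, Il17d, a distant IL-17 relative, read 5.98, 6.13 and 6.47 in Allo/Y, 5.33, 5.18 and 4.61 in Tumor, 4.63, 5.03 and 4.74 in Tumor+Allo/Y and 4.65, 5.17 and 4.70 at day 28. All Allo/Y arrays were above background, 2 of 3 Tumor arrays and 1 of 3 in each Tumor+Allo/Y group. It was lower by -1.40 ± 0.22 (adjusted p = 9.42e-04) and -1.15 ± 0.22 (adjusted p = 0.00364). Il17a, the signature cytokine of Th17 and gamma delta T cells, read 4.75, 4.89 and 4.91 in Allo/Y, 5.23, 5.45 and 5.64 in Tumor, 4.79, 4.80 and 5.33 in Tumor+Allo/Y and 5.09, 5.24 and 4.74 at day 28. It was above background on no Allo/Y array, on all Tumor arrays, on sample 9 and on samples 10 and 11. Tumor stood at least 1.37-fold above Allo/Y (0.59 ± 0.19 (adjusted p = 0.0302)), a call lost without any 1 of samples 1, 2, 3, 5 and 6 (adjusted p = 0.0621 to 0.0952). On the leukocyte scale the value was -1.38, which gives no direction, since no Allo/Y array was above background. Tumor+Allo/Y differed by 0.13 ± 0.19 (adjusted p = 0.603) from Allo/Y. Il17rd was not called, although a second probe was called lower in both comparisons (-0.46 and -0.62).

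**Figure D3:**
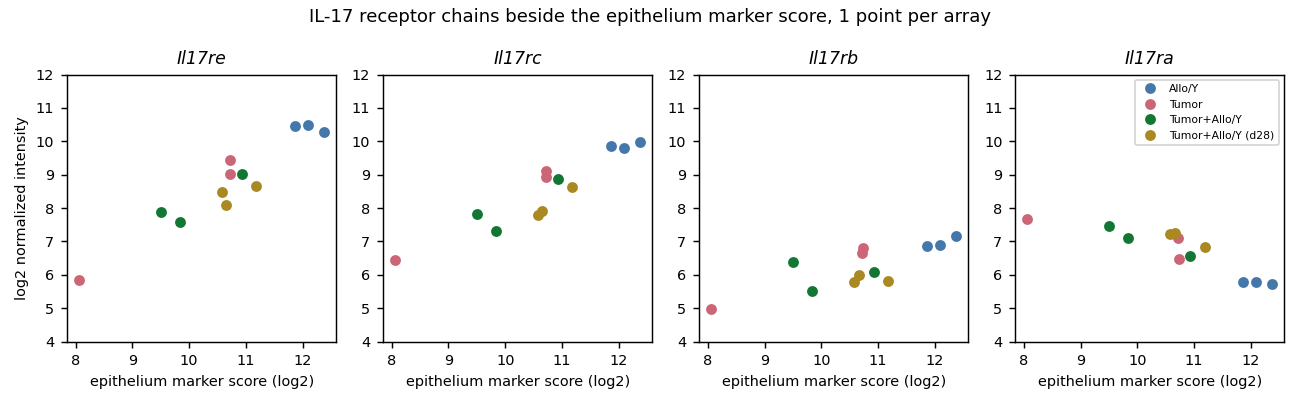
Log2 normalized intensity of 4 IL-17 receptor genes (y axes) against the mean of 16 epithelium markers (x axes, log2), 1 point per array, coloured by group. Il17re and Il17rc are highest where the epithelium score is highest (Allo/Y, 11.87 to 12.38) and lowest at sample 6 (8.06), and Il17ra runs the other way.

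**Figure D4:**
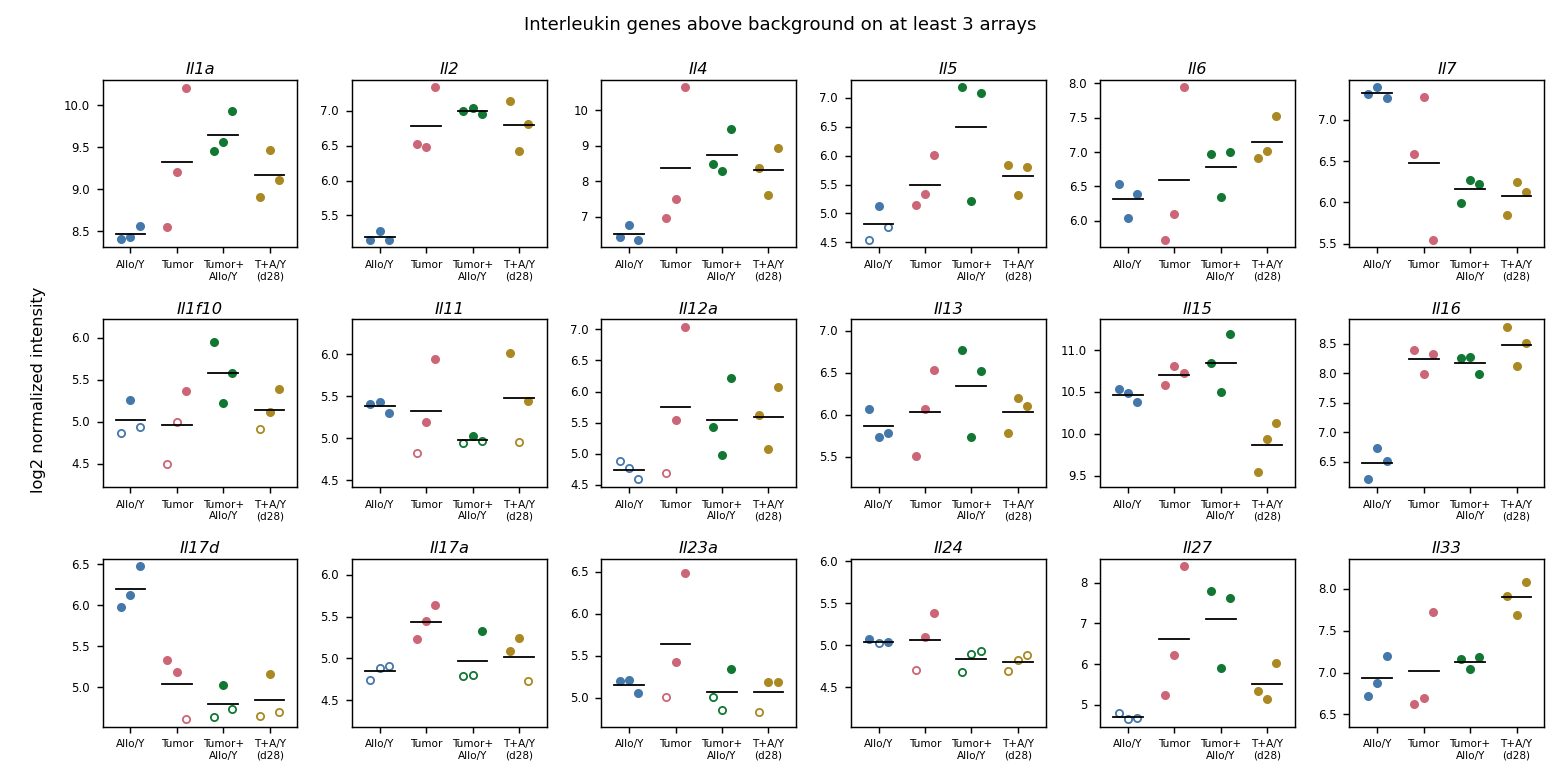
Log2 normalized intensity (y axes, 1 scale per gene) of the 18 measured cytokine genes by group (x axis), 1 point per array, filled where the detection p was under 0.05 and open otherwise, with the group mean as a line. Il4, Il12a, Il23a and Il27 are highest on sample 6, Il2 and Il16 are higher on all 9 arrays outside Allo/Y (below 0 on the leukocyte scale in both comparisons), and Il15 is lowest at day 28.

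Genes read in order along the chromosomes (RefSeq order of protein-coding genes, given without coordinates) included neighbours that moved alike and neighbours that did not. On chromosome 1, Il1r2, Il1r1, Il1rl2, Il18r1 and Il18rap follow each other with Il1rl1 between the third and the fourth. The first and the last 2 were called higher with both transfers and the 2 between were not. On chromosome 11, Il4, Il13 and Il5 lie together with Rad50 before Il5, and Il4 and Il5 were called with the combined transfer. On chromosome 13, Il6st was called higher and Il31ra lower. On chromosome 6, Il17re and Il17rc were both lower with the combined transfer, while Il23r, above background on no array, adjoins Il12rb2. The neighbours Il21 of Il2 and Il17f of Il17a did not pass the detection filter.

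Signaling genes downstream were taken from 2 lists. Of 16 measured JAK-STAT genes 11 were called higher and 2 lower in each comparison with Allo/Y, where 20.6% and 18.2% of all genes were called higher and 27.3% and 22% lower, with median differences of 0.87 for Tumor+Allo/Y and 0.85 for Tumor. Their medians on the leukocyte scale were -1.22 and -1.13, where those of all genes were -2.14 and -1.99. There 13 and 14 of the 16 were called lower, where 92.7% and 92.8% of all genes were. Jak3 alone was called higher, at 0.55 and 0.41, where 1.12% and 0.936% of all genes were. Jak3, the kinase bound to the common gamma chain, was higher by 2.64 ± 0.19 (adjusted p = 2.44e-05) and 2.38 ± 0.19 (adjusted p = 3.71e-05). Stat4, which carries the IL-12 signal, was higher by 2.65 ± 0.34 (adjusted p = 2.82e-04) and 2.62 ± 0.34 (adjusted p = 4.27e-04), at 0.56 and 0.65 on the leukocyte scale, where neither was called. Jak2, a kinase of the IL-12 and IL-3 receptors, was higher by 0.82 ± 0.12 (adjusted p = 6.94e-04) and 0.60 ± 0.12 (adjusted p = 0.00451) (-1.28 and -1.37 on the leukocyte scale). Called lower were Stat5a (-1.66 ± 0.25 and -1.27 ± 0.25), which IL-2 receptors activate, and the phosphatase Ptpn11 (-0.59 ± 0.14 and -0.40 ± 0.14). Of 13 measured genes of IL-1 and IL-17 signaling, 6 were called higher and 2 lower with the combined transfer, and 4 and 2 with the Tumor transfer, beside the same shares of all genes. All 13 were below 0 on the leukocyte scale in both comparisons, with medians of -1.65 and -1.55. There 11 and 12 were called lower, again beside 92.7% and 92.8% of all genes. Zc3h12a, an RNase that degrades cytokine mRNAs, was higher by 1.55 ± 0.16 (adjusted p = 1.01e-04) and 1.21 ± 0.16 (adjusted p = 5.12e-04) (-0.54 and -0.76 on the leukocyte scale). Traf3ip2, the gene of the IL-17 receptor adaptor Act1, was lower by -1.53 ± 0.38 (adjusted p = 0.00883) and -1.53 ± 0.38 (adjusted p = 0.0118), the direction of Il17re and Il17rc, and Tab3 was lower as well (-0.80 ± 0.12 and -0.57 ± 0.12). Between Tumor+Allo/Y and Tumor and over time no gene of either list was called. The differences of the 4 named in full were 0.26 ± 0.19 and 0.12 ± 0.19 for Jak3, 0.03 ± 0.34 and 1.01 ± 0.34 for Stat4, 0.22 ± 0.12 and 0.36 ± 0.12 for Jak2, and 0.34 ± 0.16 and -0.25 ± 0.16 for Zc3h12a.

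The combined transfer was set against the Tumor transfer at 1 week, groups whose names differ by Allo/Y. None of the 47 genes was called, where 0% of all 11971 genes were by limma (451 genes at an unadjusted p under 0.05). Of the members 3 had an unadjusted p under 0.05: Il6st at 0.48 ± 0.18, Il1f10 at 0.63 ± 0.25 and Il17a at -0.46 ± 0.19. The groups did not overlap for 2 genes, Il6st above and Il31ra below, where 6.64% of all genes did not overlap. The largest difference was that of Il5, 1.00 ± 0.46, with an interval of -0.02 to 2.02. Il12rb1 differed by -0.06 ± 0.45, Il27 by 0.47 ± 0.71 and Il4 by 0.37 ± 0.79. Samples 6 and 8, each nearest to arrays of the other group, enter these values. Without both, a choice made after the data were seen that widens the gap between the groups by its construction, 15 of the 47 were called higher and 4 lower, where 7.83% and 14% of all genes were. Among them were Il5 (1.89 ± 0.23), Il27 (1.96 ± 0.33), Il4 (1.74 ± 0.42), Il1r2 (1.34 ± 0.22) and Il12rb1 (0.89 ± 0.24, against -0.06 ± 0.45 with both), and lower Il17re (-1.49 ± 0.22), Il17rc (-1.46 ± 0.27), Il7 (-0.83 ± 0.22) and Il17rb (-0.78 ± 0.25).

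For change over time, day 28 was compared with 1 week after the combined transfer, a comparison that shares its Tumor+Allo/Y arrays with the one against Allo/Y. None of the 47 genes was called higher and 1 lower, where 1.7% and 0.351% of all genes were (2.05% called). The gene was Il15, the cytokine that maintains memory CD8 T cells and NK cells. It read 10.54, 10.48 and 10.38 in Allo/Y, 10.59, 10.81 and 10.72 in Tumor, 10.85, 10.50 and 11.19 in Tumor+Allo/Y and 9.55, 9.93 and 10.12 at day 28. The 3 day 28 arrays lay below all 9 others. Among those 9, the Tumor arrays lay just above the Allo/Y arrays, and the Tumor+Allo/Y arrays overlapped with both groups. The difference was -0.98 ± 0.19 (adjusted p = 0.0398), 1 of 2 other probes was called lower as well (-1.05), and the call was lost without sample 1, 2, 3, 5, 7, 9, 10 or 11 (adjusted p = 0.0577 to 0.155, differences -1.01 to -0.80). Against Allo/Y at 1 week Il15 differed by 0.38 ± 0.19 (adjusted p = 0.123) with the combined and 0.24 ± 0.19 (adjusted p = 0.335) with the Tumor transfer.

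Another 10 genes had an unadjusted p under 0.05 over time and were not called. The groups did not overlap for 7 of the 47, 6 above and Il15 below, where 23.7% of all genes did not overlap. Those above were Il18r1 (0.99 ± 0.31 (adjusted p = 0.116)), Il27ra (0.91 ± 0.32 (adjusted p = 0.158)), Il21r (0.84 ± 0.23 (adjusted p = 0.083)), Il33 (0.77 ± 0.26 (adjusted p = 0.148)), Il2rb (0.69 ± 0.34 (adjusted p = 0.276)) and Il4i1 (0.39 ± 0.33 (adjusted p = 0.53)). T cell markers averaged 11.40 to 12.03 at day 28 and 9.59 to 10.83 at 1 week after the combined transfer, and their part in these values was not tested. A second probe of Il21r was called higher (1.04). Genes lower at day 28 on average included Il27 (-1.60 ± 0.71 (adjusted p = 0.243)), Il12rb1 (-1.07 ± 0.45 (adjusted p = 0.221)), Il3ra (-0.96 ± 0.38 (adjusted p = 0.201)), Il1r2 (-0.70 ± 0.41 (adjusted p = 0.367)), Il10ra (-0.64 ± 0.26 (adjusted p = 0.204)) and Il6ra (-0.63 ± 0.24 (adjusted p = 0.183)), each overlapping with 1 week through sample 8. Neutrophil markers averaged 7.56 to 7.95 at day 28 and 8.25 to 9.35 at 1 week. Leaving out samples 6 and 8 was chosen after the data were seen. Without sample 8 the overlap of the genes lower at day 28 is removed by construction. That fit is thus no independent support for a change over time. In it 5 members were called higher and 12 lower, where 13.7% and 12.2% of all genes were. Il27 then fell by 2.20 ± 0.30, Il12rb1 by 1.55 ± 0.22 and Il5 by 1.48 ± 0.21, and Il18r1 rose by 1.15 ± 0.26 and Il27ra by 1.06 ± 0.28.

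The F test over the 4 groups called 23 of the 47 genes, where it called 45.7% of all genes: 6 of 18 cytokine genes, 16 of 27 receptor genes and 1 of the 2 others. The 6 cytokine genes were Il2, Il7, Il15, Il16, Il17d and Il33. The F test did not call Il1a (adjusted p = 0.0659), Il4 (0.115), Il5 (0.0602), Il27 (0.0567) or Il17a (0.0863), each called in 1 comparison. In the comparisons with Allo/Y, 16 genes were called higher with both transfers, 5 (Il1a, Il4, Il5, Il6st and Il27) higher with the combined transfer, 2 (Il17a and Il20ra) higher with the Tumor transfer, 3 (Il17d, Il17re and Il31ra) lower with both, and 2 (Il7 and Il17rc) lower with the combined transfer. A call with 1 transfer and not with the other does not show that the transfers differ, since none of the 47 genes was called between them. With Il15, that leaves 18 genes called in none of the 4 comparisons. Day 28 was not set against Allo/Y or Tumor.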

How the data were processed

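Signal intensities of 45281 probes with a detection p-value per array were deposited by the authors in a raw table (linear, neither normalized nor background-subtracted, as read from the values), beside a table of normalized linear intensity used as an alternative. Per the submitters' processing notes GenomeStudio was used, and its version is not given in the sources used here. All columns were assigned to their samples by name.

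With limma 3.58.1 in R 4.3.3, neqc took the negative-control mean and SD from the detection p-values, corrected the background (offset 16), and gave quantile normalized log2 values. The detection filter left 23054 probes, of which the 19235 with 1 gene symbol were used, and the probe with the highest mean stood for its gene. Symbols are those of the array annotation. One linear model with a mean per group over 12 arrays (8 residual degrees of freedom) gave two-sided moderated tests with Benjamini-Hochberg adjustment over 11971 genes, called under 0.05. Fold bounds replace folds for genes above background on no array of a group. The fit was tested on simulated data.

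Values are printed for every measured cytokine gene and for other members called by the F test and in a pair of groups, and for the 4 signaling genes with the smallest F test p. Members, gene lists and tests were chosen with earlier results of these data known. The number of arrays limits the precision. Other settings changed background correction, normalization, detection filter, probe choice, array weights, arrays in the fit and scale, and left out arrays. The fit without samples 6 and 8 was added after the data were seen. Exact tests were not used, since 3 arrays against 3 cannot go below 0.1. Figures were drawn with matplotlib 3.10.9.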

Additional observations from a re-analysis of the deposited data

How the results depend on the processing

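Against Allo/Y, 16 to 27 members were called higher and 2 to 6 lower with the combined transfer, and 16 to 24 and 1 to 4 with the Tumor transfer, when each array was left out in turn. The range was 0 to 0 between Tumor+Allo/Y and Tumor, 0 to 2 higher and 0 to 3 lower over time, and 20 to 33 for the F test. Of all 11971 genes, 1779 to 2871 were called higher and 2171 to 3727 lower with the combined transfer. With the Tumor transfer these were 1496 to 2421 and 1500 to 2915, and over time 5 to 558 and 0 to 294. Without a detection filter 3 members were lower with the combined transfer. The mean of kept probes left 0 lower over time, and fits of only the 2 groups compared left 1 lower with the Tumor transfer and 0 over time. Array weights, which limma stopped before convergence, gave 4 higher and 12 lower over time and 38 by the F test. With these weights 1390 of all 11971 genes were called higher over time and 1477 lower. The F test called 45.7% of all genes in the main fit, and its share in the other settings was not counted. Its higher counts in some settings are thus not shown to be particular to interleukin genes. Without samples 6 and 8 there were 5 lower with the Tumor transfer, where 2776 of all 11971 genes were. That fit gave 19 called between Tumor+Allo/Y and Tumor, 5 higher and 12 lower over time, and 37 by the F test. Between Tumor+Allo/Y and Tumor, Il12rb1 turned from -0.06 to 0.89 and Il17re from 0.055 to -1.49. The leukocyte scale shifts all genes of an array by the same amount. It lowered every difference by 2.09 with the combined transfer, 1.97 with the Tumor transfer and 0.12 between Tumor+Allo/Y and Tumor. Over time the shift was -0.006. This scale gave 2 higher and 33 lower with the combined transfer and 2 and 33 with the Tumor transfer, where 92.7% and 92.8% of all genes were called lower. It gave 0 lower over time and 38 by the F test. Of the 47 genes, these log2 differences turned negative with the combined transfer and were called on at least 1 of the scales: Il12a -1.29, Il13 -1.61, Il15 -1.71, Il16 -0.40, Il17a -1.97, Il1a -0.91, Il1f10 -1.53, Il2 -0.29, Il33 -1.90, Il5 -0.41, Il6 -1.64, Il21r -0.87, Il27ra -0.095, Il2rb -0.062, Il6ra -0.45, Il18r1 -0.93, Il10rb -1.05, Il12rb2 -0.60, Il3ra -0.017, Il4i1 -0.86, Il17ra -0.82, Il6st -1.51, Il15ra -1.28, Il18bp -1.42, Il1r1 -1.88, Il1rap -1.10, Il1rl2 -1.92, Il20ra -1.53, Il20rb -1.95 and Il22ra1 -2.01. With the Tumor transfer they were Il12a -0.96, Il13 -1.80, Il15 -1.73, Il16 -0.21, Il17a -1.38, Il1a -1.12, Il2 -0.38, Il23a -1.49, Il24 -1.95, Il33 -1.89, Il5 -1.29, Il6 -1.70, Il21r -0.43, Il2rb -0.30, Il6ra -0.71, Il18r1 -0.44, Il10rb -1.01, Il12rb2 -0.62, Il3ra -0.22, Il4i1 -0.59, Il17ra -0.66, Il6st -1.86, Il15ra -1.29, Il18bp -1.67, Il1r1 -1.75, Il1rap -1.13, Il1rl2 -1.91, Il20ra -1.30, Il20rb -1.91 and Il22ra1 -1.66. Il4 lost its call with the combined transfer under no background correction (adjusted p = 0.0512), the authors' normalized values (0.0509) and no detection filter (0.0698). Il31ra lost its call with the Tumor transfer under these as well (0.0689, 0.0673 and 0.062), as did Il20ra (0.0613, 0.0609 and 0.0668). Without a detection filter Il17re lost both calls (0.0582 and 0.0624) and Il17rc its call (0.0585). The cause of the other changes was not tested. No paired analysis was possible because the labels number the samples 1 to 12 without numbers shared across groups. Genes near background, such as Il17a, Il22ra1 and Il24, have values that the background correction can move. For genes above background on no Allo/Y array, such as Il12a, Il12rb2 and Il17a, a negative leukocyte scale value gives no direction.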
